A study of Mus musculus with 6 samples.

Results

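The 30 genes described here encode the enzymes of glycolysis, the enzymes that set the fate of pyruvate, and the enzymes of the pentose phosphate pathway. They were taken from the deposited count table by gene symbol, and all 30 of the 30 symbols had exactly 1 row among its 25965 rows. Of these, 17 belong to glycolysis, 5 to pyruvate fate and 8 to the pentose phosphate pathway. RNA sequencing had been done on 6 mouse cell lines positive for BCR-ABL, the kinase made by the Philadelphia translocation. The 3 lines called WT (WT1, WT2 and WT3) were labelled Cdk6 wild type, with the protocol naming a Cas9-GFP control plasmid. The 3 lines called KO (KO1, KO2 and KO3) were labelled Cdk6 knock out, with guide RNAs against CDK6 carried on the same Cas9-GFP plasmid. GFP-positive cells had been plated singly and grown out, so a line is a clone, and loss of the CDK6 protein had been checked by Western blot. CDK6 is a kinase that, bound to a D-type cyclin, drives cells through G1. All lines carried BCR-ABL and were kept in the same serum-containing medium, and no age, strain or sex of the source animals is used here. Nothing in the labels says whether the lines came from separate animals, so p-values measure the spread between these 6 lines.

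Glycolysis splits glucose into pyruvate in a chain of cytosolic steps, with hexokinase, phosphofructokinase and pyruvate kinase as the regulated ones. Lactate dehydrogenase turns pyruvate into lactate and restores NAD+, whereas the pyruvate dehydrogenase complex, which is switched off by the PDK kinases, feeds it to the mitochondria. The pentose phosphate pathway branches off at glucose 6-phosphate: its oxidative arm makes NADPH, and its non-oxidative arm exchanges sugars between ribose 5-phosphate, the backbone of nucleotides, and glycolysis. Many proliferating blood cells, leukaemic B-lineage cells among them, run these pathways at high rates.

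The promoters of 4 members are shown because these genes carry the main patterns below. Ldha had the highest level per length of all members, Tkt the highest of the pentose phosphate pathway, and Hk1 and Pfkp differed more than 2-fold in library KO2. Each window runs from 250 bases before to 50 bases after a RefSeq start in GRCm38. It is written 5′ to 3′ on the gene's strand. Capitals mark ACGTG on either strand, the core of the element bound by hypoxia-inducible factors and part of CACGTG, the E-box bound by MYC and by the glucose-responsive MLX factors. Where copies overlap they form 1 capital stretch.
Ldha (chr7:46845554-46845853, plus strand): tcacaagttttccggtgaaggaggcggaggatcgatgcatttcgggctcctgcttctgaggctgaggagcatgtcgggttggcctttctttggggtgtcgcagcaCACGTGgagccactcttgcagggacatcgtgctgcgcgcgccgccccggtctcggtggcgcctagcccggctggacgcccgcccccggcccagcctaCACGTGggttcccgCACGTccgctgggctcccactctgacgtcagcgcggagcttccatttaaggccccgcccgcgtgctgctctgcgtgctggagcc
Hk1, downstream start (chr10:62340372-62340671, minus strand): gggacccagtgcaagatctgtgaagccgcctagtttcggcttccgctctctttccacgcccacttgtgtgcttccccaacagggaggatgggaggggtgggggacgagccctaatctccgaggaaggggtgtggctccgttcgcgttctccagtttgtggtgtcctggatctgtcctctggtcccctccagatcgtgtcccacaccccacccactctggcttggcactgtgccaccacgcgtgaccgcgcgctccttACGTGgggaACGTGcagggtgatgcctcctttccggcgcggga
Pfkp (chr13:6648722-6649021, minus strand): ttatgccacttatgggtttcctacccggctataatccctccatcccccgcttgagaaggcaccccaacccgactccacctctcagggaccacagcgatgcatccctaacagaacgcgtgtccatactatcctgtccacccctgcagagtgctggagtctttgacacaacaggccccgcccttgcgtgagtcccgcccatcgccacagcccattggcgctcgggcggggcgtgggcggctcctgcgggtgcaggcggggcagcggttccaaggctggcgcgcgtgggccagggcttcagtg
Tkt (chr14:30548881-30549180, plus strand): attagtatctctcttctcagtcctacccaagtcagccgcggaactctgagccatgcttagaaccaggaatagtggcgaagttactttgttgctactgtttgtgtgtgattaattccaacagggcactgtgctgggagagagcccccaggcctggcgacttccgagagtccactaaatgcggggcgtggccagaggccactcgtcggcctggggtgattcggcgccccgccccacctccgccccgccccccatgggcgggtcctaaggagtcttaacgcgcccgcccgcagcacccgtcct
The Ldha window, at the first of 2 listed starts, held 3 such stretches, of which 2 were a full CACGTG. The Ldha window at the second start held 0. The downstream Hk1 window held 2 and the upstream one 0, and the windows of Pfkp and Tkt held 0. All 30 members had a window in the RefSeq set, 44 windows in all. ACGTG was present in 17 of these 44 (38.6%) and in 19.6% of all 32851 windows of 300 bases, and CACGTG in 3 of the 44 and in 7.15% of all. These matches are a description of letters and not of binding.

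The libraries held 17859519 (KO1) to 24108563 (WT1) counts. A level in CPM is a gene's count divided by the library's total and multiplied by 1000000, and 3 counts, the limit that a count of 0 allows, equal 0.124 to 0.168 CPM. Limits of this kind cover counting error only. Transcripts of the B lineage were present in every library: the 7 marker genes summed to 4019 to 4122 CPM in WT and to 3240 to 4678 CPM in KO. The 6 marker genes of T and NK cells summed to at most 0.343 CPM, with Cd3e, Cd4, Cd8a and Ncr1 at 0 counts in all 6. The 4 stromal markers summed to at most 0.560 CPM, with Col1a2 and Dcn at 0 counts, and the 6 myeloid markers with a row to 28.8 to 45.3 CPM in WT and 16.0 to 43.4 CPM in KO, with Elane at 0 counts. Within this sum the genes differed. Lyz2, the lysozyme of macrophages and neutrophils, lay, for lines 1, 2 and 3, at 38.7, 26.8 and 37.0 CPM in WT and at 12.4, 15.3 and 15.2 CPM in KO (log2 fold change -1.27 ± 0.19; edgeR adjusted p = 0.479, DESeq2 adjusted p = 1.15e-05). Every KO library was below every WT library, and the part of this difference in the members' values was not tested. Itgam, an integrin of myeloid cells, lay at 29.5 CPM in KO1 and at 0.248 to 4.90 CPM elsewhere. In bulk RNA of this kind fewer cells of a type and less RNA per cell cannot be told apart. Library KO2 stood apart: the first principal component, with 68.0% of the variance, placed it at 113, WT2 at 12.8 and the other 4 between -39.1 and -28.1. Results that rest on KO2 are therefore given with and without it. WT1 and WT3 were the most alike pair and still differed by more than counting noise, with a mean chi-square of 6.10 per gene, where 1 is the value for sampling noise alone. The transcript of the targeted gene, Cdk6, was not lower in KO. In lines 1, 2 and 3 it lay at 39.5, 45.0 and 55.8 CPM for WT and 42.1, 72.6 and 40.4 CPM for KO. The log2 fold change was 0.14 ± 0.29 (SE, n = 3 per group; 95% interval -0.59 to 0.87; edgeR adjusted p = 0.900). By exact permutation of the libraries (two-sided) p was 0.8, and 0.1 is the least that 3 against 3 can give. Leaving out KO2 gave a log2 fold change of -0.22. Directions below therefore refer to the libraries as labelled.

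The first question was which enzymes these lines transcribe and at what level. Levels are compared between genes only per length, as CPM per kb of exon and as means of the 6 libraries. Lactate dehydrogenase A (Ldha) came first at 718 CPM per kb, with a range from 632 to 797 over the libraries. Transketolase (Tkt), which moves 2-carbon units in the non-oxidative pentose phosphate arm, followed at 444, and pyruvate kinase (Pkm), which makes pyruvate and ATP, at 432. Their ranges, 400 to 482 for Tkt and 383 to 483 for Pkm, overlapped. Aldolase A (Aldoa) lay at 315, triosephosphate isomerase (Tpi1) at 204, glucose phosphate isomerase (Gpi1) at 201 and enolase 1 (Eno1) at 176. This order depends on the length used. The exons of Aldoa cover 2565 bases and its longest coding transcript 1549, while both lengths are 3223 for Tkt. By that transcript length Aldoa would come above Tkt and Pkm. In the pentose phosphate pathway transaldolase (Taldo1) at 124, 6-phosphogluconate dehydrogenase (Pgd) at 117 and 6-phosphogluconolactonase (Pgls) at 117 CPM per kb came after Tkt. The first enzyme of the cytosolic oxidative arm, G6pdx, lay at 32.5, and its counterpart in the endoplasmic reticulum, H6pd, at 9.94.

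Some isoenzymes were at or near 0. Ldhb, the lactate dehydrogenase subunit of oxidative tissues, had 0 counts in all 6 libraries. Hexokinase 3 (Hk3) had at most 2 counts in a library, and Eno2, the enolase of neurons, had 1 count in KO1 and 0 in the others. Aldoc had 13 to 28 counts, so that Aldoa made up at least 99.8% of aldolase counts per kb in every library. Of the 30 members 27 passed the low-count filter and were tested. Hk3, Eno2 and Ldhb were not.

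**Figure D1:**
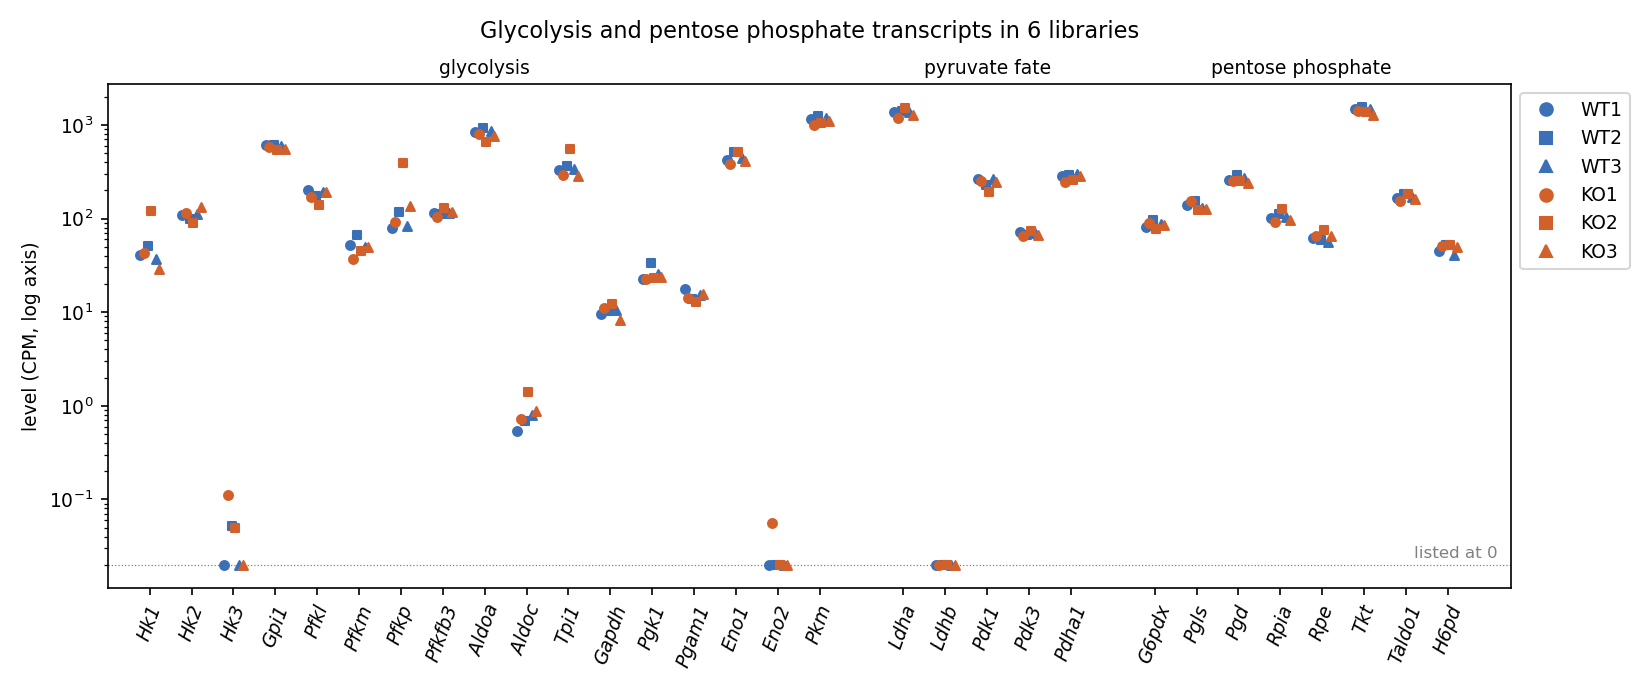
Level of each of the 30 members (CPM, log axis) in the 3 WT libraries (blue) and the 3 KO libraries (orange), with circles, squares and triangles for lines 1, 2 and 3. Values of 0 are drawn on the dotted line. Hk1, Pfkp and Tpi1 stand highest in KO2. Levels are not divided by length here, and Gapdh, Pgk1 and Pgam1 lie far below Aldoa and Pkm, as they also do per kb of exon.

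Gapdh, Pgk1 and Pgam1, which catalyse consecutive steps in the ATP-yielding stretch of glycolysis, had much lower values than the steps on either side. Gapdh, glyceraldehyde 3-phosphate dehydrogenase and a common reference gene, had 169 to 245 counts per library, or 6.91 CPM per kb. Phosphoglycerate kinase (Pgk1) lay at 13.8 and phosphoglycerate mutase (Pgam1) at 8.39 CPM per kb, while Aldoa, Tpi1, Eno1 and Pkm lay at 176 or more. These genes have processed copies elsewhere in the mouse genome. In the GENCODE transcripts 82.5% of the 50-base stretches of the longest Gapdh coding transcript also occurred in transcripts of other genes, 68.0% of those of Pgk1 and 41.5% of those of Pgam1. The share was 72.2% for Eno1, 34.4% for Pkm and 25.3% for Gpi1, which had high values all the same. It was 16.7% for Ldha, 13.5% for Aldoa, 7.51% for Tpi1 and 0% for Tkt, Pgd and Pgls. The 27 other genes with a row that share a 30-base stretch with Gapdh held 1889 counts over the 6 libraries, beside 1255 for Gapdh. The corresponding rows held 10 counts beside 3048 for Pgk1, and 0 beside 1829 for Pgam1. How the submitters counted reads that match several places is not stated in the labels used here, and the part of shared sequence in these levels was not tested. The values of Gapdh, Pgk1, Pgam1 and Eno1 are uncertain for this reason, and those of Pkm and Gpi1 may be as well.

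**Figure D2:**
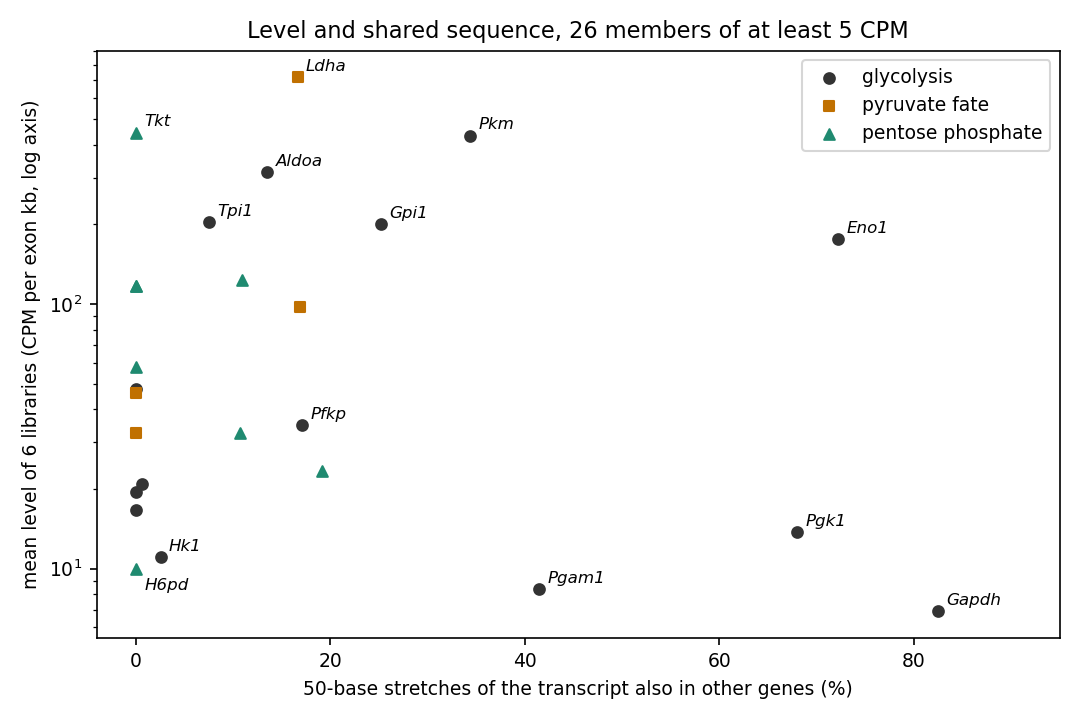
Mean level of the 6 libraries (CPM per kb of exon, log axis) against the percentage of 50-base stretches of the transcript that also occur in other genes, for the 26 members with a mean of at least 5 CPM. Gapdh, Pgk1 and Pgam1 combine 41.5% to 82.5% shared stretches with values below 14 CPM per kb, whereas Eno1, at 72.2%, lies at 176.

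The second question was which members differed between KO and WT. No member passed the main test: edgeR's quasi-likelihood test over 10896 genes called 0 of the 27 tested members and 0 genes in all (0% of genes), with adjusted p from 0.479 to 0.980 among the members. The smallest edgeR adjusted p of any gene was 0.475, so the lowest members lay near the lowest value in the whole fit. At an unadjusted p under 0.05 there were 3 members, Aldoa, Pkm and Gpi1, where 9.45% of all genes had such a p. DESeq2 called 0 members and 1.94% of all genes. Its adjusted p was 0.065 for Aldoa, 0.083 for Pkm and 0.17 for Gpi1. The limma-voom fit called 0 members and 0 genes. The fold changes were small in most members and leaned downward: 18 of 27 were negative against 47.2% of all genes, with a median log2 fold change of -0.08 against 0.01 over all genes. In 7 members every KO library had a lower CPM than every WT library (8.68% of all genes) and in 1 every KO library had a higher one (10.6% of all genes). With TMM-scaled CPM these members were 6 (11% of all genes) and 1 (8.53%), without Pgd.

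In the preparatory steps of glycolysis, Gpi1, which turns glucose 6-phosphate into fructose 6-phosphate, lay at 605, 608 and 597 CPM in WT and at 575, 538 and 548 CPM in KO, with the lines in the order 1, 2 and 3 here and throughout. All KO values lay below all WT values, by little: the log2 fold change was -0.14 ± 0.05 (SE, n = 3 per group, edgeR adjusted p = 0.522). Aldoa, which splits fructose 1,6-bisphosphate, lay at 848, 934 and 862 CPM in WT and at 792, 651 and 766 CPM in KO. Every KO library was below every WT library, KO2 the most, and the log2 fold change was -0.28 ± 0.08 (SE, n = 3 per group; 95% interval -0.48 to -0.09; edgeR adjusted p = 0.479). The muscle-type phosphofructokinase Pfkm lay at 52.4, 66.9 and 50.1 CPM in WT and at 36.6, 44.6 and 49.3 CPM in KO, where WT3 and KO3 nearly met (-0.40 ± 0.17, edgeR adjusted p = 0.534; -0.25 without WT2). The 95% interval for Pfkm was -0.81 to 0.021. The liver-type isoenzyme Pfkl lay at 203, 175 and 191 CPM in WT and at 170, 140 and 192 CPM in KO. Its groups overlapped because KO3 was as high as WT3 (-0.20 ± 0.11, edgeR adjusted p = 0.593; -0.11 without KO2). Pfkfb3, which makes the activator of phosphofructokinase, ran from 103 to 129 CPM with overlapping groups. Aldoc, at 13 to 28 counts, had a log2 fold change of 0.565 ± 0.41 with overlapping groups (edgeR adjusted p = 0.684).

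In the ATP-yielding steps, Pkm lay at 1170, 1254 and 1188 CPM in WT and at 996, 1048 and 1088 CPM in KO. All KO libraries were below all WT libraries, with a log2 fold change of -0.23 ± 0.07 (SE, n = 3 per group; 95% interval -0.39 to -0.06; edgeR adjusted p = 0.482). The counts are per gene and do not tell the muscle and embryonic splice forms of pyruvate kinase apart. Eno1 lay at 422, 514 and 439 CPM in WT and at 386, 520 and 410 CPM in KO, with WT2 and KO2 the highest of their groups (-0.08 ± 0.16, edgeR adjusted p = 0.898). Gapdh, Pgk1 and Pgam1, at 8.28 to 33.3 CPM, had log2 fold changes of 0.02, -0.25 and -0.15 with overlapping groups. For Pgk1 it was -0.064 without WT2, the highest library, and for Pgam1 -0.049 without WT1. The sign for Gapdh turned in limma-voom, at -0.01, and at -0.0011 in the fit that took the line number as a block.

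Among the genes of pyruvate fate Ldha lay at 1387, 1422 and 1365 CPM in WT and at 1197, 1510 and 1278 CPM in KO. KO1 and KO3 were below all WT libraries and KO2 was above them, and the log2 fold change was -0.08 ± 0.12 (SE, n = 3 per group; 95% interval -0.38 to 0.21; edgeR adjusted p = 0.849). Without KO2 it was -0.21 and without KO1 -0.0022. Pdk1, a kinase that switches off pyruvate dehydrogenase, lay at 264, 229 and 263 CPM in WT and at 251, 190 and 244 CPM in KO. The groups overlapped and both lines numbered 2 were the lowest of their group (-0.17 ± 0.11, edgeR adjusted p = 0.652; -0.069 without KO2). Pdk3, another such kinase, ran from 65.4 to 73.0 CPM over all libraries. Pdha1, the catalytic subunit of pyruvate dehydrogenase, lay at 282, 291 and 299 CPM in WT and at 246, 261 and 281.7 CPM in KO. KO3, at 281.7 CPM, nearly met WT1, at 281.8 CPM, and the log2 fold change was -0.17 ± 0.07 (edgeR adjusted p = 0.532). Its 95% interval was -0.34 to 0.0055.

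In the pentose phosphate pathway Tkt lay at 1470, 1554 and 1494 CPM in WT and at 1416, 1364 and 1289 CPM in KO. All KO libraries were below all WT libraries (-0.17 ± 0.07, SE, n = 3 per group, edgeR adjusted p = 0.532). Pgd, the second NADPH-making enzyme of the oxidative arm, lay at 255, 292 and 271 CPM in WT and at 254, 252 and 238 CPM in KO. The groups were parted only by the small gap between WT1 and KO1 (-0.16 ± 0.08, edgeR adjusted p = 0.588). Rpe, ribulose 5-phosphate epimerase, was the one member with all KO libraries above all WT libraries: it lay at 61.9, 58.9 and 56.4 CPM in WT and at 65.3, 76.3 and 64.9 CPM in KO (0.20 ± 0.11, edgeR adjusted p = 0.606; 0.094 without KO2). Its annotated transcripts share 19.1% of their 50-base stretches with Kansl1l, so reads of this pair may not be told apart. The 95% intervals of Tkt (-0.35 to 0.0051), Pgd (-0.36 to 0.046) and Rpe (-0.075 to 0.48) included 0. G6pdx, Pgls, Rpia, Taldo1 and H6pd had overlapping groups and log2 fold changes from -0.11 to 0.13, and their 95% intervals included 0 as well. Of these G6pdx, which catalyses the entry step of the cytosolic oxidative arm, lay at 80.9, 97.2 and 88.2 CPM in WT and at 88.9, 76.8 and 84.9 CPM in KO, with WT2 the highest and KO2 the lowest.

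**Figure D3:**
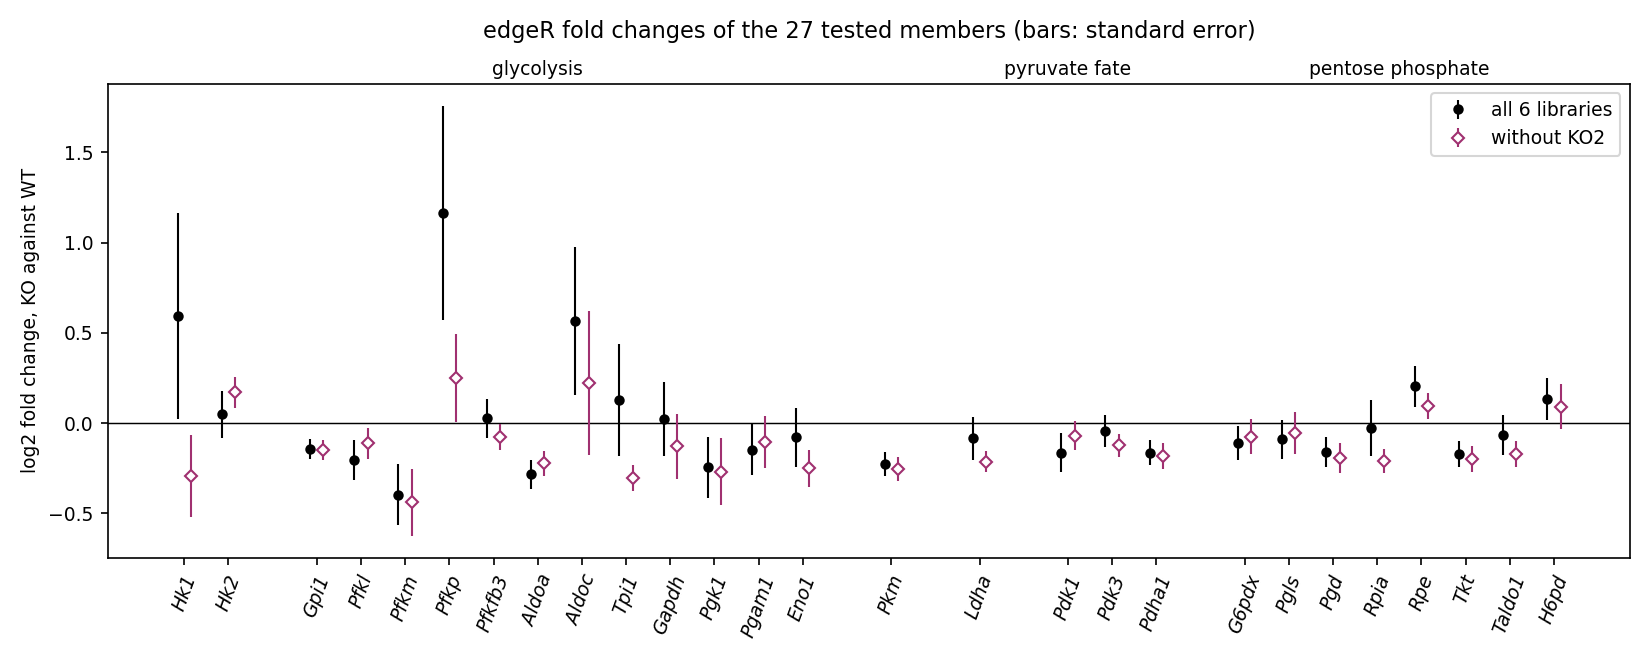
log2 fold change of KO against WT from edgeR for the 27 tested members, with all 6 libraries (filled circles) and without KO2 (open diamonds); bars are standard errors. With all libraries Hk1, Pfkp, Aldoc and Tpi1 lie above 0 with long bars, and without KO2 Hk1 and Tpi1 lie below 0.

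Per library, the median of the 15 tested glycolysis members, as log2 CPM (prior count 2) minus the WT mean, stood at -0.13, -0.16 and -0.15 for KO lines 1, 2 and 3. For the WT lines it stood at -0.07, 0.06 and -0.02, so each KO library lay below each WT library. The median over all 10896 tested genes was 0.04, -0.05 and 0.06 in the 3 KO libraries and between -0.01 and 0.01 in WT. The 4 tested members of pyruvate fate had medians of -0.15, -0.04 and -0.06 in KO1, KO2 and KO3, against -0.03 to 0.03 in WT. The 8 pentose phosphate members had medians of -0.04, -0.01 and -0.11 in KO and -0.04, 0.09 and -0.02 in WT, and these overlapped. The medians of the fitted log2 fold changes were -0.08 for glycolysis, -0.12 for pyruvate fate and -0.08 for the pentose phosphate pathway. The glycolysis median was 0.0049 without WT2, -0.000115 without KO1 and -0.15 without KO2. Summed CPM, which weights the members by their level, gave another picture. For lines 1, 2 and 3 the glycolysis sum was 4018, 4353 and 4065 CPM in WT and 3645, 4283 and 3802 CPM in KO, where KO2 lay among the WT libraries. The pentose phosphate sum was 2319, 2500 and 2353 CPM in WT and 2275, 2255 and 2109 CPM in KO, with every KO library below every WT library. Tkt alone, at 1289 to 1554 CPM, held most of this sum, which therefore mainly follows the Tkt values. The sum for pyruvate fate was 2004, 2009 and 1997 CPM in WT and 1760, 2034 and 1870 CPM in KO, with KO2 the highest of all. Medians and sums carry no test.

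**Figure D4:**
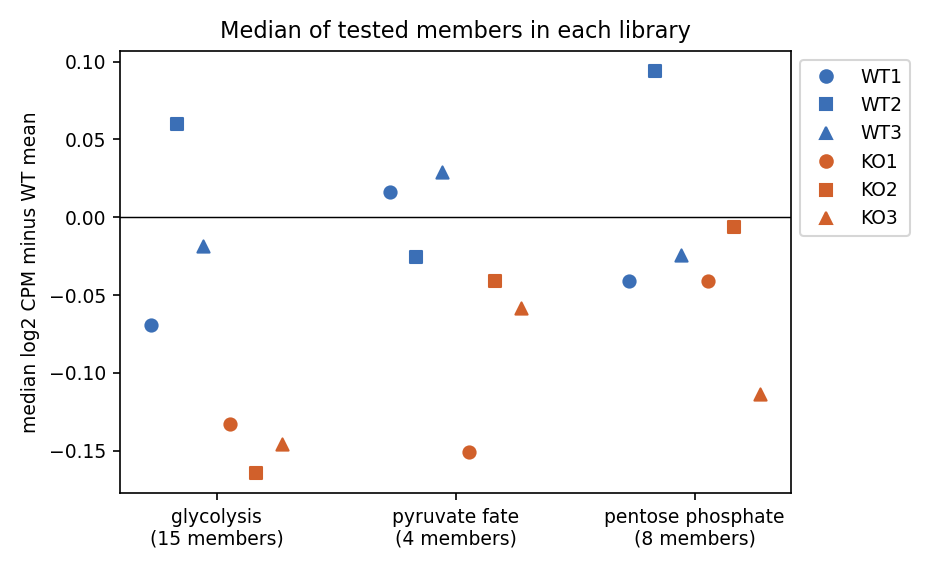
Median of the tested members in each library, as log2 CPM (prior count 2) minus the mean of the WT libraries, for glycolysis, pyruvate fate and the pentose phosphate pathway. In glycolysis the KO libraries sit between -0.16 and -0.13, below the WT libraries at -0.07 to 0.06, and in the pentose phosphate pathway the groups overlap.

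Among the members the 2 largest differences of a single library from the others, in Hk1 and Pfkp, lay in KO2 and concerned the balance of isoenzymes. Hk1, Hk2, Pfkl, Pfkm and Pfkp all had counts in every library. Of the 26 members with a mean of at least 5 CPM, 2 had a library more than 2-fold from the median of the other 5. Among all genes of that level 13.4% had such a library, so the members held no excess of them. In both members, Hk1 and Pfkp, this library was KO2, as it was in 11.7% of all genes of that level. The hexokinase Hk1 (chromosome 10, 62268855 to 62379920), whose enzyme binds mitochondria and serves most tissues, lay at 40.5, 51.3 and 37.0 CPM in WT and at 43.2, 121 and 29.1 CPM in KO. KO2 was 2.99 times the median of the others, while KO1 lay within the WT range and KO3 below it. The log2 fold change was 0.59 ± 0.57 (edgeR adjusted p = 0.768), and without KO2 it was -0.29 ± 0.23 (edgeR adjusted p = 0.494). Hk2, the hexokinase induced in proliferating and tumour cells, lay at 109, 99.3 and 112 CPM in WT and at 115, 89.2 and 133 CPM in KO, lowest in KO2 and highest in KO3 (0.05 ± 0.13, edgeR adjusted p = 0.926). As a share of hexokinase counts per kb, Hk1 made up 61.1% in KO2 and 20.3% to 37.4% in the other 5 libraries.

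The platelet-type phosphofructokinase Pfkp (chromosome 13, 6579874 to 6649060) lay at 78.7, 117 and 82.4 CPM in WT and at 91.6, 395 and 137 CPM in KO. KO2 was 4.31 times the median of the others, and WT2 was the highest WT library. The log2 fold change was 1.17 ± 0.59 (SE, n = 3 per group; 95% interval -0.31 to 2.64; edgeR adjusted p = 0.579), and it was 0.25 ± 0.25 without KO2 (edgeR adjusted p = 0.590). Pfkp made up 63.6% of phosphofructokinase counts per kb in KO2 and 20.3% to 31.8% elsewhere, while Pfkl made up 26.1% in KO2 and 48.7% to 60.4% elsewhere. All phosphofructokinase transcripts together stood at 144 CPM per kb in KO2 and at 79.0 to 99.8 in the other 5. Genes around Pfkp were also higher in KO2: the 14 genes of at least 5 CPM within 5 Mb had a median log2 ratio of 0.42 to the mean of the other 5 libraries, against 1.99 for Pfkp, each with 0.5 CPM added. Of the 50-base stretches of Pfkp 17.1% occur in other genes, most often in Pitrm1, which overlaps it. Pitrm1 lay at 389 CPM in KO2 and at 235 to 254 CPM elsewhere. The part of this neighbourhood in the Pfkp level was not tested. Around Hk1 the median of 39 neighbours was -0.02 in KO2, against 1.60 for Hk1.

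**Figure D5:**
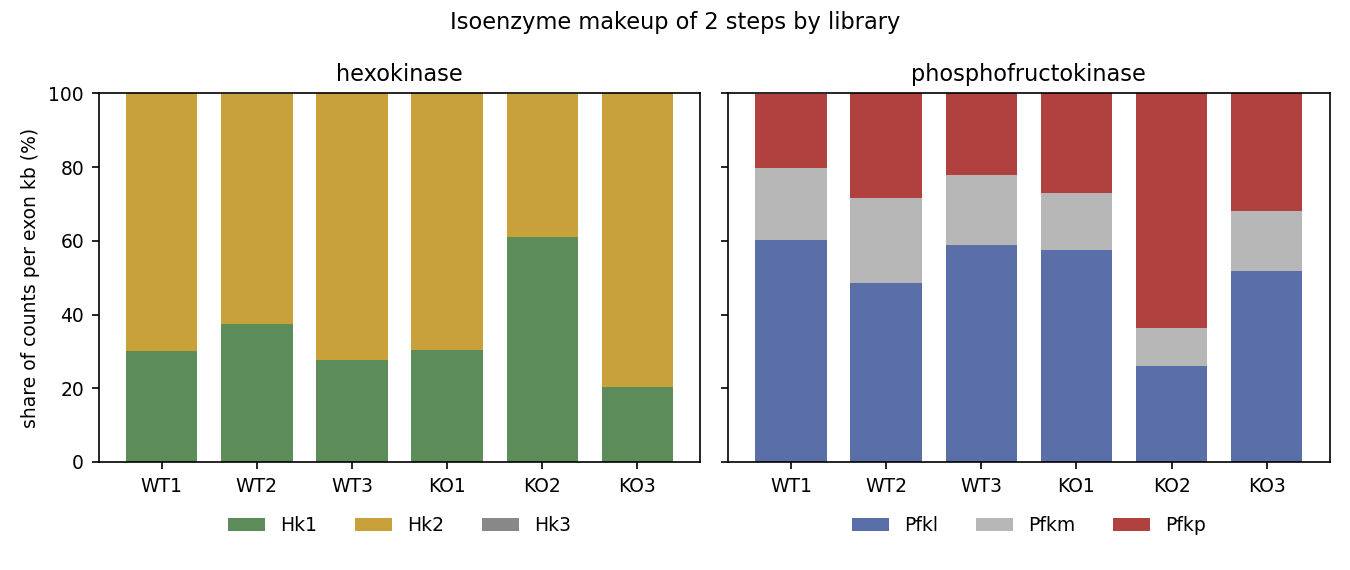
Share of hexokinase (left) and phosphofructokinase (right) counts per kb of exon taken by each isoenzyme in each library, in percent. In KO2 Hk1 reaches 61.1% and Pfkp 63.6%, whereas Hk2 and Pfkl hold the largest share in the other 5 libraries.

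Ratios of counts within a library, which do not depend on scaling, were compared for 3 pairs. Hk2 to Hk1 was 2.69, 1.94 and 3.02 in WT and 2.66, 0.736 and 4.56 in KO, so KO held both the lowest and the highest value (two-sided exact permutation test, p = 0.8, adjusted over the 3 ratios 0.8). Pfkp to Pfkl was 0.387, 0.670 and 0.432 in WT and 0.539, 2.81 and 0.709 in KO. KO2 and KO3 lay above all WT libraries and KO1 between them (exact permutation p = 0.2, adjusted 0.6). KO was higher within each of the 3 same-numbered pairs, and an exact permutation within pairs gave p = 0.25, the smallest it can give. No label says that equal numbers mark paired lines, so this comparison rests on an unproven pairing. Pgd to G6pdx, the step pair of the oxidative arm, was 3.15, 3.00 and 3.08 in WT and 2.86, 3.28 and 2.80 in KO (exact permutation p = 0.5, adjusted 0.75). The smallest p this design allows is 0.1. Ldhb to Ldha was left out because Ldhb had no counts.

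Tpi1 (chromosome 6, 124810586 to 124814158) lay at 326, 364 and 338 CPM in WT and at 288, 558 and 284 CPM in KO; it was singled out after its values had been seen. KO1 and KO3 were below all WT libraries and KO2 was far above them. The log2 fold change was 0.13 ± 0.31 with all libraries (edgeR adjusted p = 0.913) and -0.31 ± 0.07 without KO2 (edgeR adjusted p = 0.194). The 65 genes of at least 5 CPM within 5 Mb of Tpi1 had a median log2 ratio of 0.50 in KO2 to the mean of the other libraries, against 0.81 for Tpi1. The nearby Cdca3, Ncapd2 and Usp5 had ratios of 0.79, 0.84 and 0.45, while Slc2a3, also within 5 Mb, had -0.14. Gapdh lies in the same stretch of chromosome 6 and had a ratio of 0.28. The part of the neighbourhood in the Tpi1 level was not tested.

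The 4 X-linked members, Pgk1, Pdk3, Pdha1 and G6pdx, had log2 ratios of KO2 to the other libraries from -0.19 to 0.11. Xist, the RNA that silences an X chromosome, stood at 2.08 CPM in KO2 and at 716 CPM or more elsewhere. The 285 X-linked genes of at least 5 CPM had a median log2 ratio of -0.09 in KO2. KO2 was the highest of the 6 libraries in 13 of 27 tested members (26.3% of all genes) and the lowest in 8 (39.2%), the latter being Hk2, Gpi1, Pfkl, Aldoa, Pgam1, Pdk1, G6pdx and Pgls.

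Without KO2 more of the members had lower values in KO. Of the 27 members 22 had a negative log2 fold change (49% of all genes), with a median of -0.15 against 0.01 over all genes. In 13 members both remaining KO libraries lay below all WT libraries (16% of all genes), and in 2, Hk2 and Rpe, both lay above (26.6%). With TMM-scaled CPM these counts were the same, 13 and 2, against 21.9% and 19.9% of all genes. The 13 were Gpi1, Pfkm, Aldoa, Tpi1, Eno1 and Pkm of glycolysis, Ldha, Pdk3 and Pdha1 of pyruvate fate, and Pgd, Rpia, Tkt and Taldo1 of the pentose phosphate pathway. edgeR still called 0 members and 0% of genes, with 8 members at an unadjusted p under 0.05 (18.8% of all genes) and the smallest adjusted p at 0.194. DESeq2 without KO2 called 4 members lower, Aldoa, Tpi1, Pkm and Ldha, where it called 5.95% of all genes and 3.68% as lower. The DESeq2 log2 fold changes were -0.22 for Aldoa, -0.31 for Tpi1, -0.26 for Pkm and -0.22 for Ldha. Without both WT2 and KO2 it called 1 member, Tpi1, at -0.26 (adjusted p = 0.0388), where it called 2.89% of all genes. These DESeq2 fits on fewer libraries were added once the values were known.

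Other genes of the pathways were read from a list of 56, of which 53 had a row and 33 were tested. edgeR and DESeq2 called 0 of them. At an unadjusted p under 0.05 there was 1, and 17 of 33 log2 fold changes were positive, with a median of 0.00. Prps2, which makes the nucleotide precursor PRPP from ribose 5-phosphate, lay at 269.9, 244 and 249.7 CPM in WT and at 218, 146 and 229.7 CPM in KO. All KO libraries were lower, KO2 the most (-0.39 ± 0.16, edgeR adjusted p = 0.528). Its paralog Prps1 ran from 123 to 142 CPM with overlapping groups. Pcx, the mitochondrial pyruvate carboxylase, lay at 62.5, 60.7 and 62.6 CPM in WT and at 53.4, 56.8 and 38.7 CPM in KO, lowest in KO3 (-0.33 ± 0.17, edgeR adjusted p = 0.585). Slc16a1, the lactate exporter MCT1, and Bsg, its chaperone, had log2 fold changes of -0.16 and -0.16 with overlapping groups. Pdhb, the partner of PDHA1, had -0.13, and the low-level Shpk, which phosphorylates sedoheptulose, had 0.63 at 0.787 to 2.02 CPM. The glucose transporters Slc2a1 and Slc2a3 lay at 68.9 to 82.6 and 38.1 to 46.1 CPM and had log2 fold changes of -0.08 and 0.05. A further transporter, Slc2a6, did not pass the low-count filter and lay at 22.4 CPM in KO2, 5.67 CPM in WT2 and 0.28 to 0.456 CPM elsewhere. Of the transcription factors known to act on glycolytic genes, Myc lay at 356, 390 and 343 CPM in WT and at 373, 359 and 586 CPM in KO, high in KO3 (0.25 ± 0.19, edgeR adjusted p = 0.704). Hif1a lay at 130 to 153 CPM over all libraries (-0.07 ± 0.08, edgeR adjusted p = 0.807). Fbp1, the enzyme that runs the phosphofructokinase step backward in gluconeogenesis, stood at 1.49 CPM in KO2 and at 11.4 to 21.4 CPM elsewhere.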

How the data were processed

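The deposited table holds read counts per gene symbol for 6 libraries, without normalization by the authors. Per the labels' protocols, RNA was extracted with a column kit and made into TruSeq libraries. Trim Galore, STAR and DESeq2 and the build GRCm38 are named in the submitters' processing notes. The sources used here give neither versions nor roles, and no read counter, gene models or strand mode, so overlapping and antisense genes could not be told apart. Every column matched 1 sample by its description. All 25965 rows name a gene, and 66 rows with a symbol already listed were kept apart.

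Counts were tested with edgeR 4.0.16 in R 4.3.3 (TMM, filterByExpr by genotype, quasi-likelihood F test with robust estimates, all 6 libraries, no block), two-sided, with Benjamini-Hochberg adjusted p under 0.05 over 10896 genes. Intervals are at 95%. As alternatives the scaling (RLE, totals only), the tool (DESeq2 1.42.0, voom in limma 3.58.1), the filter (none, 1 CPM in 3 libraries) and the robust option were changed, a block was added, and libraries were left out. Rows without an adjusted p in DESeq2 stayed out of its counts. The fit was tested on simulated data. Levels per length use the union of exons of GENCODE vM21 basic transcripts, and places and promoters come from RefSeq GRCm38.p6. Shared stretches were sought on both strands.

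Lines of both genotypes are numbered 1 to 3 in the labels. The correlation across genes of deviations from the group means was 0.33, 0.64 and 0.46 for the pairs 1, 2 and 3, each above 0.1, so numbers were taken as pairs in the block fit. WT1 had a higher correlation with KO3 (0.41), and KO1 with WT3 (0.36). Deviations are taken from the mean of 3 lines, so a shift shared by WT2 and KO2 can make lines 1 and 3 correlate in any pairing. The criterion therefore cannot decide pairs 1 and 3. No label says that a number marks a shared culture.

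Values in every library are given for members whose groups do not overlap, the 10 members with the smallest p, the highest isoenzyme of a step, and members with a library more than 2-fold from the median of the others at a mean of at least 5 CPM. Of the other pathway genes, those called and up to 6 with the smallest p are named; Prps1, Slc2a1, Slc2a3, Slc2a6, Myc, Hif1a, Fbp1, Lyz2 and Itgam were chosen after their values were seen. The members and lists were chosen with earlier results of these data known. One marker list is not reported here.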

Additional observations from a re-analysis of the deposited data

How the results depend on the processing

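With all 6 libraries edgeR called 0 members under every scaling, filter and dispersion setting tried, and DESeq2 called 0 members and 218 genes in all. The replicate block changed no call of a member: 0 genes were called, 985 had an unadjusted p under 0.05, and Gapdh turned to -0.0011. In limma-voom Gapdh stood at -0.0069. Leaving out KO2, DESeq2 called 684 genes, 4 members and 1 other pathway gene, Prps2. Leaving out WT2 and KO2 it called 340 genes and 1 member. In these 2 DESeq2 fits, without KO2 and without both, the log2 fold changes were -0.29 and -0.14 for Hk1, -0.079 and -0.091 for Pfkfb3, -0.31 and -0.26 for Tpi1, -0.13 and -0.11 for Gapdh, -0.23 and -0.25 for Cdk6 and, without both, 0.014 for Pgls. The glycolysis median was -0.15 and -0.14. Over the edgeR fits that leave out 1 library or both lines numbered 2, the glycolysis median ran from -0.15 to 0.0049, that of pyruvate fate from -0.16 to -0.057 and that of the pentose phosphate pathway from -0.12 to -0.016. Over the same fits the log2 fold change ran from -0.29 to 0.95 for Hk1, -0.068 to 0.17 for Hk2, -0.090 to 0.12 for Pfkfb3, -0.31 to 0.31 for Tpi1, -0.13 to 0.18 for Gapdh, -0.25 to 0.017 for Eno1, -0.17 to 0.00074 for G6pdx, -0.18 to 0.015 for Pgls, -0.21 to 0.072 for Rpia and -0.24 to 0.31 for Cdk6. The log2 difference of the Hk2 to Hk1 ratio ran from -0.84 to 0.47, that of Pfkp to Pfkl from 0.36 to 1.55 and that of Pgd to G6pdx from -0.14 to -0.0071. The cause of these turns was not tested. Of the single members' other values 426 kept their direction and side of the threshold and 3, Aldoa, Pkm and Ldha in DESeq2 without KO2, came to pass it. Counts of 13 to 28 limit Aldoc, and a count of 0 limits Ldhb to 0.124 to 0.168 CPM.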
